A study of Homo sapiens with 6 samples.

Results

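The genes described here are 10 genes of the cyclic AMP (cAMP) and protein kinase A (PKA) pathway, of 57773 genes in the deposited expression values. They are the PKA catalytic subunits PRKACA and PRKACB, the regulatory subunits PRKAR1A, PRKAR1B, PRKAR2A and PRKAR2B, the kinase inhibitors PKIA and PKIG, the transcription factor CREB1 and the serotonin receptor HTR1B. They were found by matching Ensembl gene identifiers to these symbols in GENCODE v44 on GRCh37. PRKACA and HTR1B had been picked because both fell after knockdown in the libraries described here, and the other 8 had been added as subunits that rose in return or did not move. The knockdown values of the 10 are therefore given as a description, without a test. The values went against that wording in 1 respect: PRKAR1A fell as well, and no member lay above its controls in all knockdown libraries.

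PKA is the main kinase switched on by cAMP. In the resting enzyme a pair of regulatory subunits holds a pair of catalytic subunits inactive, and cAMP binding to the regulatory subunits frees the catalytic subunits, which then phosphorylate targets such as CREB1. Receptors coupled to the G protein Gs raise cAMP through adenylyl cyclase, receptors coupled to Gi, of which HTR1B is one, lower it, phosphodiesterases degrade it, and the PKI proteins bind and block free catalytic subunits.

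The libraries came from H460, a human line of non-small-cell lung cancer, with no engineered allele named in the labels. The study asked how the cells' transcripts changed when *HKlincR1* (AC093323.3), a broadly expressed long intergenic noncoding RNA, was depleted. Cells of 3 biological replicates received a commercial non-targeting siRNA (siNT) and cells of 3 received si*HKlincR1*_2 (si*HKlincR1*), all at 50 nM with the same lipid reagent for 48 hours. Strand-specific polyA libraries were read as 75 bp pairs and given as RPKM, a read count scaled to the length of the gene model and the size of the library. A single siRNA was sequenced, so loss of *HKlincR1* and any other action of that siRNA cannot be told apart. *HKlincR1* itself was at 3.62, 3.47 and 3.83 RPKM with siNT and at 0.563, 0.628 and 0.390 RPKM with si*HKlincR1*, a fall of 85.5%.

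The 6 libraries held between 24980280 and 30521000 reads. Keratins marked them as epithelial, with KRT18 between 78.9 and 88.5 RPKM and KRT8 between 28.1 and 32.1 RPKM, although the epithelial markers CDH1 and EPCAM were at most 0.00543 and 0.110 RPKM. The summed leukocyte markers stayed at or below 0.187 RPKM. The 4 fibroblast markers summed to 14.3 to 16.6 RPKM with siNT and 17.8 to 21.7 RPKM with si*HKlincR1*, nearly all of it COL3A1. COL1A1 went the other way, with 0.998 to 1.23 RPKM with siNT and 0.419 to 0.773 RPKM with si*HKlincR1*, and COL1A2 and DCN were at most 0.0126 RPKM. The part of these differences in the results was not tested. The si*HKlincR1* replicate 3 stood apart from the other knockdown libraries: across 15451 tested genes (mean RPKM of 0.5 or more), limma called 55 lower (0.356%) and 1 higher (0.00647%) with it, and 314 lower and 204 higher without it. A call needed an adjusted p under 0.05 together with a fold change over 1.5. Replicate 3 had the lowest *HKlincR1* of the knockdown libraries, at 0.390 RPKM against 0.563 and 0.628 RPKM. Why this library differed was not tested, and values without it do not replace those of all 6 libraries. Log2 fold changes of the members in the fit other than PRKACA are given also without it. So are those of list genes whose adjusted p falls under 0.05 without it.

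The siRNA sequence is shown first because of its short seed, bases 2 to 8 of the strand that pairs with the target. A match to this seed also occurred in the 3′ UTR of the 3 members that fell. In the lines for the strand and its target, written 5′ to 3′, capitals mark the seed and the stretch that pairs with it.
si*HKlincR1*_2 strand complementary to its target: aAGCACACgaguauacuuc
*HKlincR1* target of si*HKlincR1*_2, as DNA: gaagtatactcGTGTGCTt

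The match to the seed, GTGTGCT, was searched on the transcript strand in the annotated 3′ UTR of each gene's canonical transcript in GENCODE v44. It was present 2 times in PRKACA, 1 time in PRKAR1A and 2 times in HTR1B, and in none of the other 7 members. The windows of 19 bases aligned to the siRNA target are printed from the GRCh37 genome, on the strand of the transcript, with the match in capitals.
PRKACA first match, chr19:14202585-14202603, minus strand: cgattcaacctGTGTGCTg
PRKACA later match, chr19:14202551-14202569, minus strand: cctcttgaacaGTGTGCTg
PRKAR1A match, chr17:66528816-66528834, plus strand: gattataccatGTGTGCTa
HTR1B first match, chr6:78171130-78171148, minus strand: caaaccattatGTGTGCTa
HTR1B later match, chr6:78170747-78170765, minus strand: tgtgattccttGTGTGCTa

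Outside the 7 matched bases these windows were mostly unlike the siRNA target. In the order printed, 4, 2, 3, 2 and 4 of the 11 bases before the match equalled the target. The PRKACA matches lay 34 nt apart near the end of a 3′ UTR of 1424 nt, those of HTR1B lay 383 nt apart in a 3′ UTR of 1307 nt, and that of PRKAR1A lay in a 3′ UTR of 2982 nt. Of 10761 tested genes with an annotated 3′ UTR of at least 30 nt, 1513 (14.1%) held at least 1 match and 213 (1.98%) held at least 2. The longest member 3′ UTR, 8930 nt in CREB1, held none. With the shorter match to bases 2 to 7, 7 of the 10 members held at least 1, beside 44.6% of the tested genes, so the shorter match did not single out the 3 genes. Counting every coding transcript with a 3′ UTR, 3 of 8 for PRKACA, 7 of 13 for PRKAR1A and 1 of 1 for HTR1B held the longer match. The counted model of HTR1B had 1543 nt against 2568 nt in the annotated transcript, so how far its reads came from the 3′ UTR is not known. PRKAR1B, whose groups overlapped, held 1 match of the longer kind in its canonical transcript outside the 3′ UTR. The seed of the other siRNA strand had 1 match in each 3′ UTR of PRKACB, PRKAR1A, PRKAR2A, PKIA, CREB1 and HTR1B. It had none in those of the remaining members. The share of all tested genes with that match was not worked out, so nothing is read from these matches. Whether any match acted as a site was not tested.

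**Figure D1:**
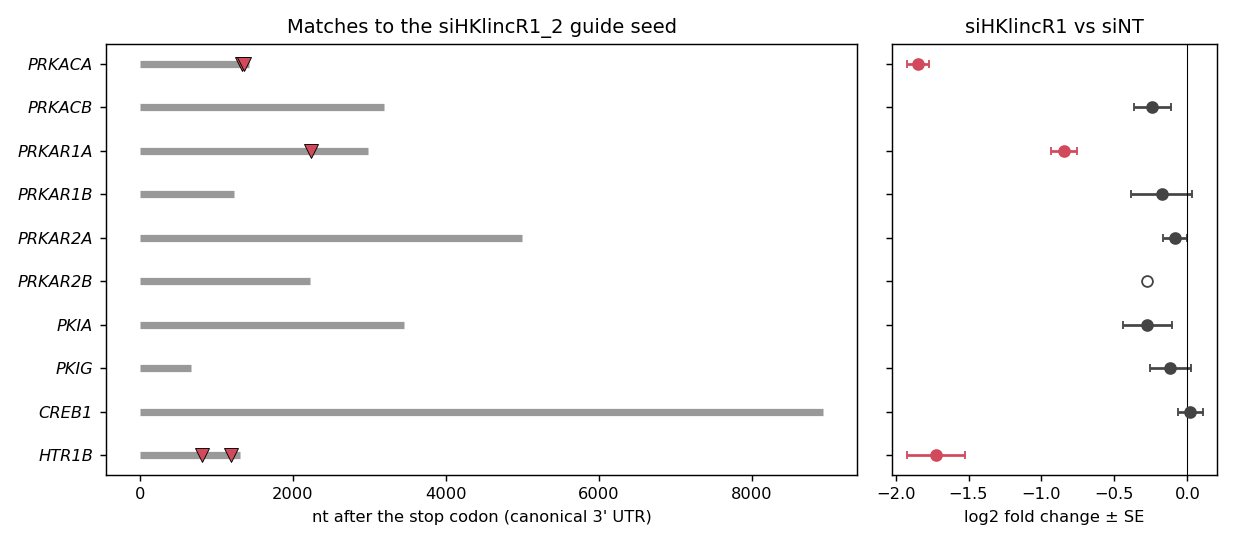
Left, the canonical 3′ UTR of each of the 10 members as a bar to scale (x axis, nt after the stop codon), with triangles at matches to bases 2 to 8 of the si*HKlincR1*_2 strand; right, the log2 fold change with its standard error (red, at least 1 match; open circle, PRKAR2B, not in the fit). Triangles stand on PRKACA, PRKAR1A and HTR1B only, the 3 genes farthest left, and the 2 on PRKACA lie 34 nt apart and overlap.

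PRKACA encodes the widely expressed catalytic subunit alpha of PKA (ENSG00000072062, chromosome 19, 14202500 to 14228896, minus strand, GRCh37). The RPKM were 7.31, 7.64 and 8.01 with siNT and 2.04, 2.01 and 2.10 with si*HKlincR1*. The knockdown libraries sat close together and all far below the controls, and si*HKlincR1* replicate 3 was level with the rest. The means were 7.65 ± 0.350 and 2.05 ± 0.0432 RPKM (SD, n = 3), a fall of 73.2%, and the log2 fold change was -1.85 (standard error 0.08). By replicate number it was -1.79, -1.87 and -1.88. Between 1229 and 1432 reads fell on the gene in each control library and between 357 and 386 in each knockdown library. In bulk RNA, fewer cells expressing a gene and less of its RNA in each cell cannot be told apart.

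PRKACB encodes the catalytic subunit beta (chromosome 1, 84543745 to 84704181, plus strand). It was at 15.3, 14.9 and 14.4 RPKM with siNT and at 11.7, 10.9 and 15.5 RPKM with si*HKlincR1*. Replicates 1 and 2 of the knockdown were below every control, while replicate 3 was the highest of the 6 libraries, so the groups overlapped. The log2 fold change was -0.24 (standard error 0.13) with replicate 3 and -0.39 without it, and -0.14 without si*HKlincR1* replicate 2.

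In the controls PRKACA made up 34.0 ± 1.73% of the RPKM of the 2 catalytic subunits (SD, n = 3). After knockdown it made up 14.1 ± 1.91%, and the ranges, 32.3 to 35.8% and 11.96 to 15.6%, did not overlap. The summed level of the catalytic subunits went from 22.5 ± 0.114 to 14.8 ± 2.46 RPKM, a fall of 34.4%, or 40.6% without si*HKlincR1* replicate 3. PRKACA accounted for 5.60 of the 7.74 RPKM lost (72.4%). PRKACB, already the more abundant of the pair, thus carried most of what remained, at a level that was not above its own controls in replicates 1 and 2. These sums are of RNA and say nothing of protein.

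**Figure D2:**
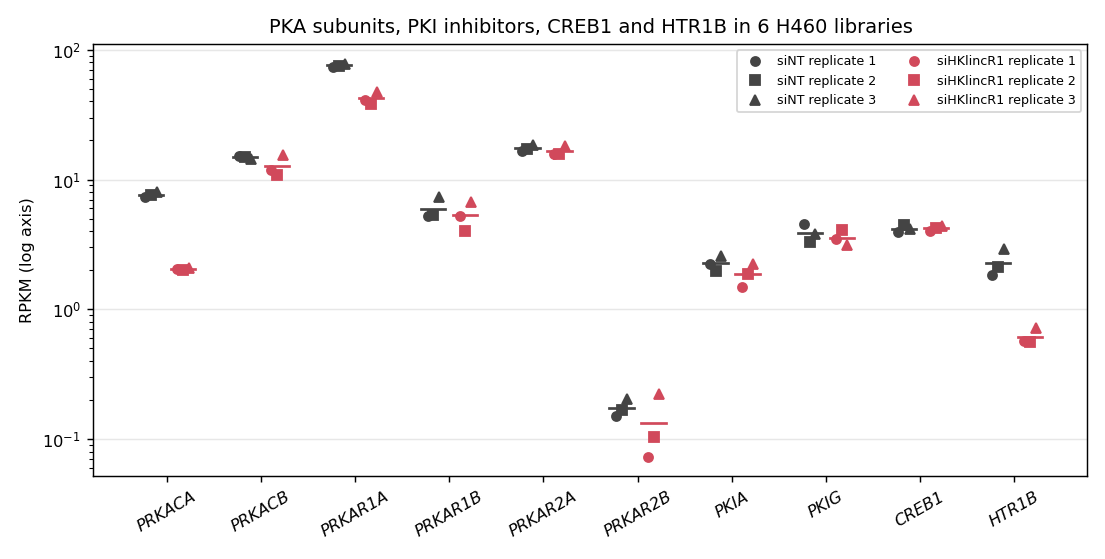
RPKM (log y axis) of each of the 10 members (x axis) in the 3 siNT libraries (grey) and the 3 si*HKlincR1* libraries (red), with a point for each library, its shape giving the replicate number, and a line at each group mean. The groups separate for PRKACA, PRKAR1A and HTR1B and overlap for the other 7.

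PRKAR1A encodes the regulatory subunit of type I PKA that most cells use (chromosome 17, 66507921 to 66547460, plus strand), and germline loss of it causes Carney complex. It was the most abundant member, at 73.9, 75.1 and 78.1 RPKM with siNT, and stood at 40.9, 38.3 and 47.4 RPKM with si*HKlincR1*. Every knockdown library was below every control, with replicate 3 nearest to them. The means were 75.7 ± 2.20 and 42.2 ± 4.64 RPKM (SD, n = 3), a fall of 44.3%, and the log2 fold change was -0.85 (standard error 0.09), or -0.93 without replicate 3. The processed pseudogene PRKAR1AP1 on chromosome 1, a copy of this gene, went from a mean of 5.04 to 2.84 RPKM (log2 fold change -0.79, standard error 0.15). Reads may be shared between the copies, so the level of each is uncertain, though the parent had at least 7538 reads in every library.

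The other regulatory subunits moved little. PRKAR2A, the type II subunit alpha, was at 16.6, 17.3 and 18.5 RPKM with siNT and at 15.7, 15.7 and 18.1 RPKM with si*HKlincR1* (log2 fold change -0.09, standard error 0.08, and -0.15 without si*HKlincR1* replicate 3). PRKAR1B, the type I subunit known mainly from brain, was at 5.21, 5.33 and 7.30 RPKM and then at 5.20, 3.98 and 6.75 RPKM (log2 fold change -0.18, standard error 0.21). Both pairs of groups overlapped. The PRKAR1B value had no stable direction, at -0.36 without si*HKlincR1* replicate 3, 0.01 without si*HKlincR1* replicate 2 and -0.02 without siNT replicate 3. The PRKAR2A value was -0.04 without siNT replicate 3 and -0.05 without si*HKlincR1* replicate 1 or 2. Exons of PRKAR1B overlap those of DNAAF5 on the opposite strand, which was more abundant at a mean of 18.7 RPKM with siNT and 18.4 RPKM after knockdown, and the strand setting of the counting is not given in the sources used here. PRKAR2B, the type II subunit beta, had 9 to 29 reads per library, with 0.150, 0.167 and 0.204 RPKM in the controls and 0.0732, 0.104 and 0.224 RPKM after knockdown, and was under the 0.5 RPKM needed for the fit. Replicate 3 of the knockdown was its highest library.

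The summed regulatory subunits went from 99.3 ± 4.31 to 64.1 ± 7.41 RPKM (SD, n = 3), a fall of 35.4%, of which PRKAR1A accounted for 95.2%. The share of type I subunits (PRKAR1A and PRKAR1B) in that sum went from 82.2% to 74.03%. The ratio of catalytic to regulatory RPKM was 0.236, 0.230 and 0.215 with siNT and 0.223, 0.222 and 0.242 with si*HKlincR1*. These values overlapped, with means of 0.227 ± 0.0108 and 0.229 ± 0.0114, so the catalytic and the regulatory totals were lower by a similar factor. No test of the ratio was run, because the members were chosen on this contrast.

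**Figure D3:**
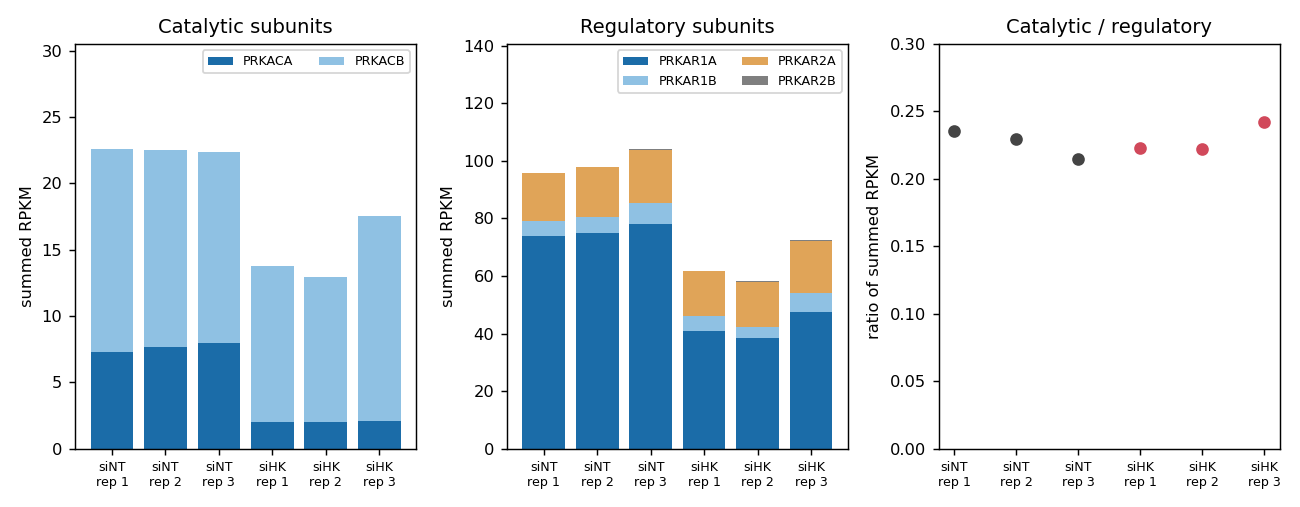
Summed RPKM of the catalytic (left) and regulatory (middle) subunits in each of the 6 libraries (siHK, si*HKlincR1*), stacked by gene on axes from 0, and the ratio of the sums (right). The catalytic sum is lower mainly through PRKACA and the regulatory sum mainly through PRKAR1A, while the ratio stays between 0.215 and 0.242.

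PKIA and PKIG encode small proteins that bind the free catalytic subunit. PKIA was at 2.25, 1.97 and 2.57 RPKM with siNT and at 1.49, 1.87 and 2.25 RPKM with si*HKlincR1* (log2 fold change -0.27, standard error 0.17). Single libraries moved this value, to -0.41 without si*HKlincR1* replicate 3, -0.13 without si*HKlincR1* replicate 1 and -0.18 without siNT replicate 3. PKIG was at 4.52, 3.32 and 3.83 RPKM and then at 3.46, 4.10 and 3.16 RPKM (log2 fold change -0.12, standard error 0.14). It was -0.03 without si*HKlincR1* replicate 3, -0.0056 without siNT replicate 1, and -0.22 without si*HKlincR1* replicate 2 or siNT replicate 2. The groups overlapped for both genes. Exons of PKIG overlap those of ADA on the opposite strand. Set against the lower catalytic sum, the summed inhibitors were at 0.299, 0.235 and 0.286 of it with siNT and at 0.359, 0.462 and 0.308 of it with si*HKlincR1*. Every knockdown ratio was above every control ratio, by a narrow margin in replicate 3. The summed inhibitors alone did not rise. Their control mean was 6.16 RPKM, in a range of 5.30 to 6.77. Their knockdown mean was 5.45 RPKM, in a range of 4.96 to 5.97, so the ranges overlapped. The catalytic sum that divides them holds PRKACA, which had been picked for its fall. The gap between the ratios therefore follows in part from that choice and is a description only.

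CREB1, the transcription factor that PKA phosphorylates, was at 3.93, 4.44 and 4.13 RPKM with siNT and at 4.03, 4.22 and 4.42 RPKM with si*HKlincR1* (log2 fold change 0.02, standard error 0.08). The 2 groups overlapped almost completely, and with single libraries left out the value lay between -0.02 (without siNT replicate 1) and 0.07 (without siNT replicate 2), with -0.01 without si*HKlincR1* replicate 3. Its activity is set by phosphorylation, which these libraries do not measure.

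HTR1B encodes a serotonin receptor that couples to Gi and so lowers cAMP (chromosome 6, 78170641 to 78173208, minus strand). It was at 1.84, 2.10 and 2.93 RPKM with siNT and at 0.569, 0.560 and 0.715 RPKM with si*HKlincR1*. All knockdown libraries were below all controls, and the controls varied more among themselves than the knockdown libraries did. The means were 2.29 ± 0.568 and 0.615 ± 0.0867 RPKM (SD, n = 3), a fall of 73.2%, with a log2 fold change of -1.72 (standard error 0.20), or -1.82 without si*HKlincR1* replicate 3. Few reads stood behind these values, 79, 99 and 113 in the controls and 25, 25 and 33 after knockdown. Exact Poisson 95% intervals, which cover counting error only, were 0.492 to 1.00 RPKM for the highest knockdown library. For the lowest control they were 1.46 to 2.30 RPKM, so the 2 did not meet. Since HTR1B had been picked for its fall in these libraries, this gap is no test of that fall.

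The mean of HTR1B and that of PRKACA fell by the same 73.2%. Both had been picked for a large fall in these libraries. Likeness between their profiles follows in part from that choice and is a description only. On log2(RPKM + 0.1) profiles centred on their own means, over 6 libraries and the 13401 genes averaging 1 RPKM or more, HTR1B was the gene with the next smallest root mean square distance to PRKACA (0.185) after ARL2BP (0.128), and ARHGAP1 followed (0.187). The genes nearest to HTR1B were PRKACA (0.185), ARL2BP (0.257) and ELOVL5 (0.274). ARL2BP went from a mean of 47.7 to 14.0 RPKM, ELOVL5 from 41.7 to 15.9 RPKM and ARHGAP1 from 5.80 to 1.94 RPKM. ARL2BP and ELOVL5 held 2 seed matches each in the 3′ UTR and ARHGAP1 held 0.

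By level, the controls ran from PRKAR1A down through PRKAR2A, PRKACB, PRKACA, PRKAR1B, CREB1, PKIG, HTR1B and PKIA to PRKAR2B. CREB1 and PKIG overlapped in that order, as did HTR1B and PKIA. After knockdown PRKACA dropped from rank 4 to rank 7, below PRKAR1B, CREB1 and PKIG, and overlapped PKIA, and HTR1B dropped below PKIA. In siNT, PRKAR1A stood at percentile 96.5 of the levels of tested genes, PRKACA at 61.2 and HTR1B at 30.8. Of the 9 members tested, 3 were called in limma, where 0.362% of all tested genes were. All 3 knockdown values lay below all 3 control values in 3 of the 10 members and above them in 0, where these held for 11.9% and 10.1% of tested genes, and for 22% in either direction. Only PRKACA was called in all 17 fits run. PRKAR1A was called in 11 and HTR1B in 10, each in 1 of the 6 fits that left out a library (the one without si*HKlincR1* replicate 3). Without the variance trend neither was called, and without the filter on low genes HTR1B was not. Since this contrast chose the members, nothing is read from these counts.

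The rest of the pathway was described with 129 genes in 12 lists, of which 128 were found and 71 reached the level needed for the fit. No list gene was called lower or higher by limma, beside 0.362% of all tested genes called either way. Voom on reads worked back from the values also called 0, beside 0.57% of all tested genes. At an unadjusted p under 0.05 there were 8 lower and 5 higher, beside 9.19% and 7.04% of all tested genes. All 3 knockdown values lay below all 3 control values in 10 of the 71 and above them in 8, beside 11.9% and 10.1% of all tested genes. Groups that did not overlap, as given below for single list genes, were found in 22% of all tested genes. The median log2 fold change of the 71 was -0.03, beside 0.00 for all tested genes. With the replicate number as a block 1 list gene was called, AREG, higher, beside 0.809% of tested genes called lower and 0.511% higher (1.32% in either direction). Without si*HKlincR1* replicate 3 there were 5, GNAI1, NR4A2, NR4A3 and SIK2 lower and AREG higher, beside 2.03% of tested genes called lower and 1.32% called higher in that fit.

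**Figure D4:**
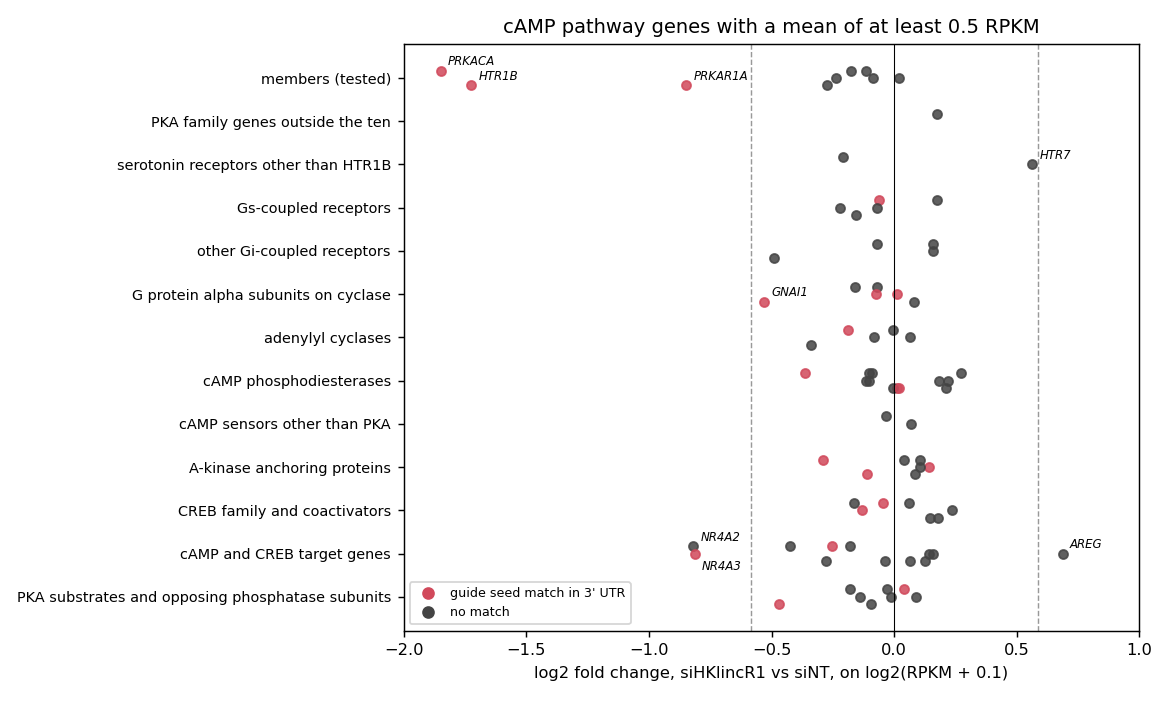
Log2 fold change on log2(RPKM + 0.1) (x axis, si*HKlincR1* minus siNT) of each tested member (top row) and each tested gene of the 12 pathway lists (other rows), in red where the 3′ UTR held the seed match, with dashed lines at a fold change of 1.5. PRKACA and HTR1B lie far to the left of every list gene, a place that follows from their having been picked for their fall. Most list genes lie near 0.

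Of the 3 PKA family genes outside the 10, PRKX, a related kinase that regulatory subunits can bind, was at 8.83, 9.60 and 9.73 RPKM with siNT and at 11.3, 10.2 and 10.4 RPKM with si*HKlincR1*. Every knockdown library was above every control, but the log2 fold change of 0.18 did not pass (adjusted p from limma, 0.314). PRKACG, a catalytic gene known mainly from testis, had 12, 9 and 9 reads with siNT and 3, 4 and 3 with si*HKlincR1*. Its near copy PRKACA makes those reads uncertain, and whether reads were shared was not tested. PKIB was at a mean of 0.244 RPKM with siNT.

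Among 13 other serotonin receptors, only HTR1D and HTR7 reached a mean of 0.5 RPKM. HTR1D, like HTR1B a Gi-coupled receptor, was at 2.82, 2.52 and 3.06 RPKM with siNT and at 2.37, 2.69 and 2.18 RPKM with si*HKlincR1* (limma adjusted p = 0.409). HTR7, which couples to Gs, was at 0.742, 0.732 and 0.430 RPKM and then at 1.08, 1.304 and 0.620 RPKM (limma adjusted p = 0.398). Both pairs of groups overlapped. HTR1D was at a higher level than HTR1B in each of the 6 libraries in RPKM, which corrects for length.

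Of the other receptors, ADRB1, the beta-1 adrenergic receptor, led the Gs list with 3.07 ± 0.347 RPKM in controls and 3.47 ± 0.391 RPKM after knockdown, and ADRA2C, an alpha-2 adrenergic receptor, led the Gi list with 6.93 ± 0.526 and 7.73 ± 0.521 RPKM (SD, n = 3). Neither passed the test (limma adjusted p = 0.498 and 0.401). PTGER4 and ADORA2B, Gs-coupled receptors for prostaglandin E and for adenosine, had limma adjusted p values of 0.711 and 0.575. LPAR2, LPAR1 and S1PR1, receptors for lysophospholipids, had limma adjusted p values of 0.854, 0.383 and 0.710.

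GNAI1, a Gi alpha subunit that inhibits adenylyl cyclase, was at 10.9, 11.02 and 10.5 RPKM with siNT and at 7.03, 6.68 and 8.81 RPKM with si*HKlincR1*. Every knockdown library was below every control, and its 3′ UTR held 3 seed matches. The log2 fold change of -0.53 (standard error 0.11) did not pass in the fit of all 6 libraries (limma adjusted p = 0.121), and did without si*HKlincR1* replicate 3 (-0.65, adjusted p = 0.0175). Its relatives GNAI3 and GNAI2 had limma adjusted p values of 0.690 and 0.542. GNAS, the Gs alpha subunit, was the most abundant of the list at 47.9 ± 0.497 RPKM (SD, n = 3) in controls and 45.6 ± 1.06 after knockdown (limma adjusted p = 0.548).

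ADCY3 was the most abundant adenylyl cyclase, at 14.1 ± 0.420 RPKM (SD, n = 3) in controls and 13.3 ± 0.201 after knockdown (limma adjusted p = 0.509). ADCY6 was at 3.95, 3.65 and 4.23 RPKM with siNT and at 2.95, 3.07 and 3.27 RPKM with si*HKlincR1*, with no overlap, but its log2 fold change of -0.34 did not pass (adjusted p from limma, 0.188). ADCY7 and ADCY1 had limma adjusted p values of 0.975 and 0.432.

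PDE4D, a cAMP-specific phosphodiesterase, was the most abundant of its list. It was at 46.2, 49.2 and 43.96 RPKM with siNT and at 34.6, 34.5 and 39.3 RPKM with si*HKlincR1*. The groups did not overlap, and the log2 fold change of -0.36 did not pass (adjusted p from limma, 0.131). Without si*HKlincR1* replicate 3 it was -0.42 with an adjusted p of 0.0294 in limma, under the fold change a call needed. PDE8A, another cAMP-specific phosphodiesterase, was at 12.1 ± 0.495 and 14.7 ± 2.08 RPKM (SD, n = 3; limma adjusted p = 0.301), and had a log2 fold change of 0.27, or 0.39 without that library (limma adjusted p = 0.0337), again under the fold a call needed. POPDC3, a membrane protein that binds cAMP, was at 9.33 and 9.77 RPKM on average, and RAPGEF4, a guanine nucleotide exchange factor that cAMP activates directly, was at 0.802 and 0.778 RPKM (limma adjusted p = 0.630 and 0.944).

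A-kinase anchoring proteins hold PKA at particular places in the cell. AKAP1, which anchors it at mitochondria, was the most abundant at 15.9 ± 1.58 RPKM (SD, n = 3) in controls and 16.3 ± 0.809 after knockdown (limma adjusted p = 0.834). AKAP13 had the largest log2 fold change of the list, -0.29 (limma adjusted p = 0.328). AKAP10 and AKAP7 had limma adjusted p values of 0.508 and 0.788.

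Downstream of PKA, the CREB family members ATF1 and CREM were more abundant than CREB1. ATF1 was at 18.2 ± 1.63 and 17.7 ± 2.57 RPKM (SD, n = 3; limma adjusted p = 0.863). CREM was at 14.7, 14.6 and 15.3 RPKM with siNT and at 19.6, 16.2 and 17.02 RPKM with si*HKlincR1*, all above the controls, but its log2 fold change of 0.24 did not pass (adjusted p from limma, 0.265). CRTC1, a coactivator of CREB, had an adjusted p of 0.414 in limma.

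Of the 12 tested genes that cAMP and CREB are known to induce, none was called in the fit of all 6 libraries. That fit called 0.362% of all tested genes, so the lack of a call among 12 says little about them. NR4A2, an orphan nuclear receptor and early response gene, was at 11.4, 10.9 and 10.96 RPKM with siNT and at 4.33, 4.83 and 11.6 RPKM with si*HKlincR1*. Replicates 1 and 2 of the knockdown were far below the controls and replicate 3 was above them. The log2 fold change was -0.82 (limma adjusted p = 0.302) with replicate 3 and -1.26 (adjusted p = 0.00402) without it, so this call rests on which libraries were used.

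NR4A1 of the same family, named after its values were seen, showed a like order, with 21.6, 20.9 and 21.03 RPKM and then 14.9, 17.01 and 20.98 RPKM (limma adjusted p = 0.314). Its log2 fold change was -0.28, and -0.41 without replicate 3 (limma adjusted p = 0.0356), under the fold change a call needed. NR4A3 was at 3.24, 2.99 and 2.83 RPKM with siNT and at 1.41, 1.40 and 2.37 RPKM with si*HKlincR1*, with replicate 3 again nearest to the controls. The log2 fold change was -0.81 (limma adjusted p = 0.171), and -1.05 without replicate 3 (adjusted p = 0.0173). SIK1, a kinase induced by cAMP, was the most abundant gene of the list at 100.3 ± 4.01 and 88.6 ± 4.61 RPKM (SD, n = 3; limma adjusted p = 0.273), and the early response gene JUNB had a limma adjusted p of 0.403.

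AREG, which encodes the growth factor amphiregulin, went the other way. It was named after its values were seen, because it was the list gene called with the replicate block. It was at 30.02, 26.4 and 21.0 RPKM with siNT and at 43.0, 51.5 and 31.5 RPKM with si*HKlincR1*. Every knockdown library was above every control, by a small margin in replicate 3. The log2 fold change was 0.69 (standard error 0.20), with a limma adjusted p of 0.212 without the block and 0.0443 with it. Without si*HKlincR1* replicate 3 it was 0.88 (limma adjusted p = 0.0339).

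SIK2, a kinase that PKA phosphorylates and inhibits, was at 2.95, 3.01 and 3.37 RPKM with siNT and at 2.21, 1.81 and 2.72 RPKM with si*HKlincR1*. The groups did not overlap, and its 3′ UTR held 3 seed matches. The log2 fold change was -0.47 (limma adjusted p = 0.240), and -0.61 without si*HKlincR1* replicate 3 (adjusted p = 0.0419). The phosphatase catalytic subunits PPP1CC and PPP1CA, which remove phosphate from PKA targets, were at 47.8 and 45.4 RPKM with siNT and at 44.8 and 40.1 RPKM with si*HKlincR1* (limma adjusted p = 0.536 and 0.307).

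**Figure D5:**
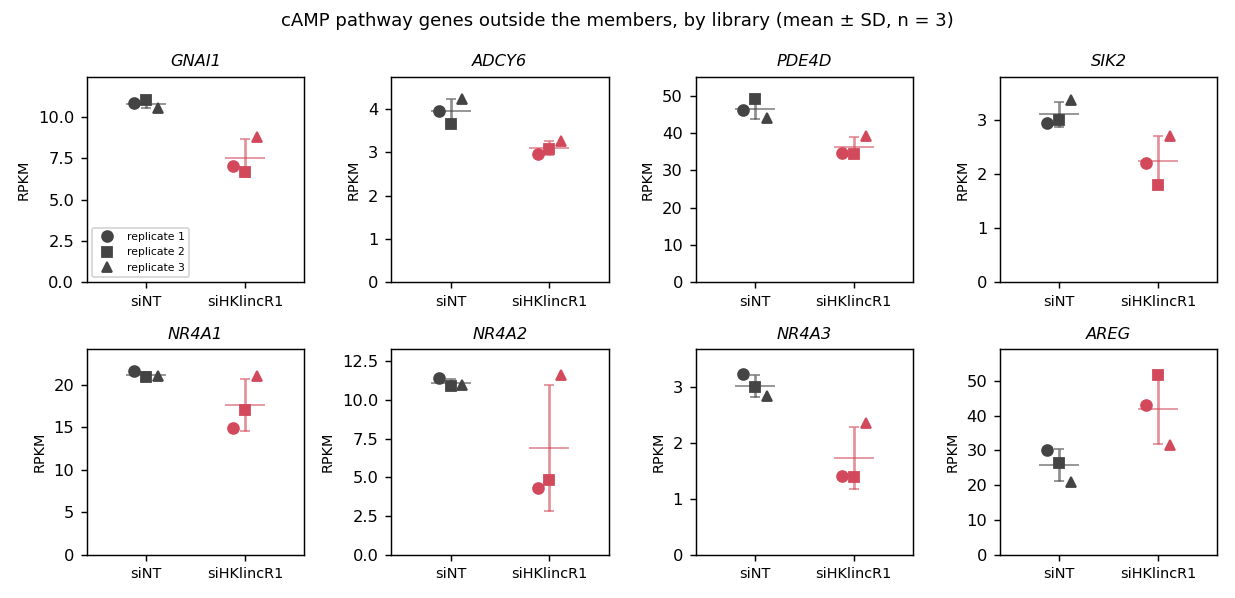
RPKM in the 3 siNT and 3 si*HKlincR1* libraries for 8 genes outside the 10 members (each panel has its own y axis from 0, in RPKM), with lines at the mean, bars for 1 SD and point shapes for the replicate number (triangle, replicate 3). In NR4A2 that library sits above the controls while the other knockdown libraries sit far below them.

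Over all tested genes with a 3′ UTR, those with a seed match were slightly lower on average. The 1300 tested genes with 1 match had a median log2 fold change of -0.08, the 213 with 2 or more had -0.08, and the 9248 with none had -0.01. In the pathway lists 17 of 71 genes (23.9%) held a match, beside 14.1% of all tested genes. Of the list genes, 12 of the 17 with a match were lower after knockdown, and 28 of the 54 without. Over all tested genes, 828 of the 1300 with 1 match and 145 of the 213 with 2 or more were lower. Of the 9248 with none, 4730 were lower. These shares are descriptions with no test, and 3′ UTR length and base composition were not matched between the groups of genes.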

How the data were processed

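The authors deposited RPKM per gene for 6 libraries, on Ensembl v74 gene models of hg19 (GRCh37), after CASAVA 1.8.2 and featureCounts per the labels. The aligner and the strand setting are not given in the sources used here. Because the deposited RPKM were not rounded, reads were worked back for all 31287 genes above 0. On simulated reads of genes averaging at least 10 reads, 1491 of 1500 genes came back exactly. Genes with fewer reads were not checked.

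Tests used limma 3.58.1 in R 4.3.3 (lmFit, eBayes with trend) on log2(RPKM + 0.1) for the 15451 genes averaging 0.5 RPKM or more, with Benjamini-Hochberg adjustment over all of them. Fold changes on this scale understate those of low genes. On simulated data 90.5% of 200 genes changed by 1.5 log2 were recovered, and 13 unchanged genes were called. The simulation gave every gene the same dispersion and held no library that stood apart, so it does not give the recovery in the real data. Calls needed an adjusted p below 0.05 with over 1.5-fold change.

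Replicate numbers come from the sample titles. Deviations of same-numbered libraries from their group means correlated weakly (r = 0.142, 0.137 and 0.266). Differently numbered ones had r from -0.209 to 0.113. With 3 libraries per mean these values depend on each other, so they are weak support for pairing. A replicate block was therefore fitted only beside the main design. P-values rest on 3 against 3 replicates.

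The members and lists were chosen with earlier results of these data known. Genes named were the 10 members, *HKlincR1*, at most 2 per list with the highest level and 2 with the largest change, any called, the 3 nearest profiles to PRKACA and HTR1B, and cell type markers. Of 57773 identifiers 55538 had a GENCODE v44 name, and 1 list gene (ADRA2B) did not match. Alternatives changed the pseudocount, filter, scaling, variance model, values tested and block, and left out each library.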

Additional observations from a re-analysis of the deposited data

How the results depend on the processing

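The direction of the PRKACA, HTR1B, PRKACB and PRKAR1A log2 fold changes was the same under every alternative run. Adding 1 RPKM before taking logs gave -1.502 for PRKACA and -1.02 for HTR1B, as its own construction shrinks low genes. With single libraries left out, HTR1B ranged from -1.86 to -1.54 (the latter without siNT replicate 3) and PRKACA from -1.88 to -1.81. Worked-back reads in place of RPKM gave a PRKACA share of 32.2% in siNT. A match to bases 2 to 7 was held by 7 members, in place of 3.

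Counts of genes called, 55 lower and 1 higher, moved with the settings. Without the filter they were 34 and 12, with voom 84 and 4, and with the replicate block 125 and 79. Without the variance trend 16 were lower, and with a pseudocount of 0.01 there were 0 higher. Leaving out 1 library gave 7 to 314 lower and 0 to 204 higher, the highest of each without si*HKlincR1* replicate 3. Pathway list genes called went from 0 to 1 with the block and ranged from 0 to 5 with a library left out. The block changed no other call among the members and list genes, but other settings ended member calls. PRKAR1A and HTR1B lost theirs without the variance trend and in 5 of the 6 fits that left out a library. HTR1B also lost its call without the filter, while PRKACA kept its call in all 17 fits. Since this contrast chose the members, nothing is read from these member calls. The PRKAR1B log2 fold change lay between -0.36 and 0.01 and that of CREB1 between -0.02 and 0.07 with a library left out. The causes were not tested. The PRKAR1A settings were added after seeing the data.

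Depth limits PRKAR2B and HTR1B most, at 29 and 113 reads or fewer in each library. The siNT sequence is not given in the sources used here.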
